A study of Mus musculus with 22 samples.

Results

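Among the 21925 protein_coding genes with a counted start in Lin-Sca-1+c-Kit+ (LSK) cells of mouse fetal liver, 1146 (5.23%) passed a limit of H3K4me3 library signal at a start and had almost no bulk RNA. A gene was taken when its strongest window, the 3 kb window around a transcript start with the highest mean count, reached a mean CPM (read counts scaled to a common library size) of 16 over 4 H3K4me3 libraries and its mean over 6 bulk RNA libraries was under 0.5 CPM. They made up 9.37% of the 12230 protein_coding genes with a marked start. Another 11084 genes were marked and had bulk RNA, 8538 were unmarked without bulk RNA and 1157 were unmarked with bulk RNA.

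The libraries came from E14.5 embryos of 2 genotypes. KO embryos were Vav-Cre Mettl3fl/fl, in which the Vav promoter drives Cre in blood cells and removes METTL3, an enzyme that writes m6A on RNA. WT embryos carried the same Mettl3fl/fl alleles without Vav-Cre. Sorted LSK cells gave bulk RNA-seq (3 KO, 3 WT), H3K4me3 CUT&RUN (2 KO, 2 WT) and single-cell RNA-seq (2 KO, 2 WT), while whole fetal liver gave INPUT RNA and RNA pulled down with J2, an antibody to double-stranded RNA (2 KO and 2 WT each). The labels call the replicates biological. Whole liver also holds hepatocytes and other cells that the Vav promoter does not reach.

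H3K4me3, trimethylated lysine 4 of histone H3, is laid down around the starts of genes, above all at starts rich in CpG, and most starts that carry it are transcribed. In stem and progenitor cells it also lies at low level on starts of developmental regulators and signalling genes that are silent, often together with the Polycomb mark H3K27me3. A window around a start also collects the signal of any other start within it.

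Promoters are shown for members that the results below turn on, as the 150 bases before the annotated start in RefSeq (GRCm38.p6), 5′ to 3′. Of the 1146 members, 587 (51.2%) had a RefSeq promoter within 500 bp of the strongest start. The first set holds the members with the highest INPUT RNA, 3 histone genes and Vtn. Capitals mark TATAAA and CCAAT, each searched on both strands, and in Vtn a forward and a reverse TATAAA overlap.
Hist1h2an, chr13:21787249-21787398, minus strand: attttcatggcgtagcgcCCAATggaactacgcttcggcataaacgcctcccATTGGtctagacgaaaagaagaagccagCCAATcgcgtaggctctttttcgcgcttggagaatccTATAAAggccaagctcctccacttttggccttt
Hist1h2ai, chr13:21716262-21716411, plus strand: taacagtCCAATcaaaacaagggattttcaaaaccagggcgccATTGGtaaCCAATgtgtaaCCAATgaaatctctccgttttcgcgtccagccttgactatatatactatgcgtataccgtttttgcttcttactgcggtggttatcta
Hist1h4h, chr13:23530894-23531043, plus strand: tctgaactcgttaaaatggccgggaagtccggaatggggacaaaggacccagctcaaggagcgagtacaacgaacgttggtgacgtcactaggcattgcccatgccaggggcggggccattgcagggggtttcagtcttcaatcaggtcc
Vtn, chr11:78498970-78499119, plus strand: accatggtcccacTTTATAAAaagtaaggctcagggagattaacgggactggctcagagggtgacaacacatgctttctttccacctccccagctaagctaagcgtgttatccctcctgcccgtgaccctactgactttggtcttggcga
CCAAT was found in the 300-base promoters of 19 of the 23 histone members with an entry (82.6%) and TATAAA in 11 (47.8%). Of all 32851 promoters in the table, 37.4% held CCAAT and 13.6% held TATAAA. Histone genes that were marked and had bulk RNA held CCAAT in 30 of 35 (85.7%) and TATAAA in 21 of 35 (60.0%). The 150 bases shown held 3 CCAAT matches in Hist1h2an and 4 in Hist1h2ai, and neither motif in Hist1h4h.
The second set is limited to members with an entry, and holds those of highest mark (Hes7, Icam5), of largest rise in KO (S100a3, Tctex1d4) and of largest fall (Slc6a3, Paqr6). Capitals mark CG.
Hes7, chr11:69120303-69120452, plus strand: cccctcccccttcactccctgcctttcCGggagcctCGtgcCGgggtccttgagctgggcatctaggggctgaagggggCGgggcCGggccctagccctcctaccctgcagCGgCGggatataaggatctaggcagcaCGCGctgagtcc
Icam5, chr9:21031888-21032037, plus strand: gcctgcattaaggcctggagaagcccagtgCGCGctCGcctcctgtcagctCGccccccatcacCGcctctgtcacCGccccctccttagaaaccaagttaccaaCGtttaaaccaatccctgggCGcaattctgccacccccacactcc
S100a3, chr3:90586802-90586951, plus strand: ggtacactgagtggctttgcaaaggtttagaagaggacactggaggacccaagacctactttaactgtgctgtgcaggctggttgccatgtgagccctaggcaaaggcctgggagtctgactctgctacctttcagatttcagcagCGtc
Tctex1d4, chr4:117126663-117126812, plus strand: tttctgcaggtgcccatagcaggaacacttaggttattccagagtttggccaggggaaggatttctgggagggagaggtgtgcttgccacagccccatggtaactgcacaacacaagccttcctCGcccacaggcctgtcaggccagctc
Slc6a3, chr13:73536597-73536746, plus strand: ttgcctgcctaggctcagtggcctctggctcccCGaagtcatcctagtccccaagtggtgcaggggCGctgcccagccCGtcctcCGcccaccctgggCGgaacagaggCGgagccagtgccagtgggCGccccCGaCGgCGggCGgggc
Paqr6, chr3:88364439-88364588, plus strand: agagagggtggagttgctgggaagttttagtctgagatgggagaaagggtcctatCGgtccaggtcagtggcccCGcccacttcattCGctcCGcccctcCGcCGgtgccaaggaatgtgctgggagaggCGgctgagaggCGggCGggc
Hes7 held 9 CG in these bases, Icam5 8, Slc6a3 11 and Paqr6 9. S100a3 and Tctex1d4 each held 1. Of the next member in each order, not shown, Tal2 (rise) held 7, Bmp4 (fall) 8 and B3gnt2 (mark) 22. A comparison of CpG content over all members was void, since under 80% of them had an entry.

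Depth was 11508783 to 14451575 counts in the strongest windows of each H3K4me3 library, 20088100 to 40641081 in bulk, 3100910 to 4120864 in INPUT and 3873688 to 5251496 in J2. Mettl3 itself was at 4.18, 6.34 and 5.51 CPM in KO bulk libraries and at 42.9, 43.0 and 32.6 CPM in WT. All 6 LSK markers (Kit, Ly6a, Cd34, Flt3, Mecom, Hlf) were present in bulk, with a median of 227 CPM, and no gene of the 11 marker lists was a member. In bulk samples fewer expressing cells and less RNA per cell cannot be told apart.

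The mark of the members was lower than that of marked genes with bulk RNA, as described here without a test. Its median was 29.3 CPM (quartiles 20.5 and 47.7) against 53.6 CPM (38.3 and 70.4), and 424 members (37.0%) lay between 16 and 24 CPM. At the other end, 144 reached 64 CPM and 18 (1.57%) were over 200 CPM. In bulk, 179 members (15.6%) had 0 counts in all 6 libraries. Just inside the limits lay Gm14296 (mark 16.005 CPM) and Rusc2 (16.01 CPM) for the mark, and Pdgfra (0.498 CPM) and Hes5 (0.499 CPM) for bulk RNA. Just outside lay Hoxc6 (15.97 CPM) for the mark, and Apc2 and Hfm1 (both 0.501 CPM) for bulk RNA.

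**Figure D1:**
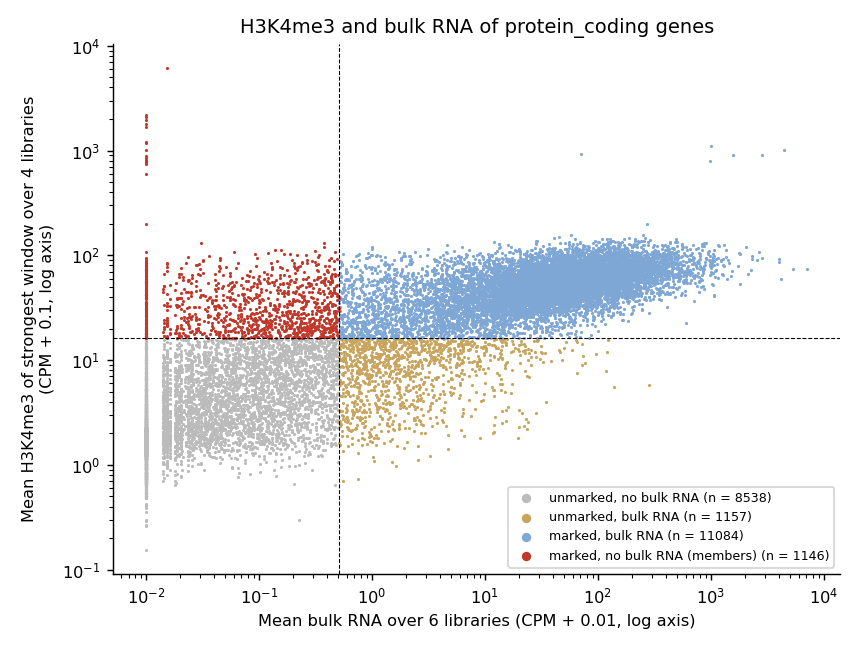
Mean H3K4me3 of the strongest window (CPM + 0.1, log axis, 4 libraries) against mean bulk RNA (CPM + 0.01, log axis, 6 libraries), 1 point per protein_coding gene. Dashed lines are the limits of 16 and 0.5 CPM. The 1146 members fill the upper left, and 18 of them stand above 200 CPM.

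The 18 members over 200 CPM were 12 predicted genes and 6 mitochondrial genes. Gm10800 on chromosome 2 stood highest, at 5820 and 5580 CPM in KO and 6330 and 6790 CPM in WT. Of the 12 predicted genes 9 had starts on chromosome 9 between 3000922 and 3036877, 2 on chromosome 2 between 98662237 and 98667301, and 1, Gm21738, on chromosome 14. In bulk 11 of them had no count, and Gm10800 had a mean of 0.00523 CPM. None of the 18 was called different between KO and WT by edgeR or DESeq2, and none had an unadjusted p under 0.05 in edgeR. Standard errors of their log2 fold changes were 0.46 to 1.24. The samples include no control CUT&RUN library, so whether the counts at these 18 starts are H3K4me3 was not tested.

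The mitochondrial members, mt-Co2, mt-Atp8, mt-Atp6, mt-Co3, mt-Nd3 and mt-Nd4l, encode subunits of cytochrome oxidase, ATP synthase and complex I. Their starts lay side by side between 7013 and 9877 of the mitochondrial genome, with 751 to 853 CPM in the H3K4me3 libraries and 0 counts in every bulk library. The other 6 mitochondrial protein_coding genes, on both sides of that stretch, had 70.6 to 4420 CPM in bulk. Mitochondrial DNA carries no histones. How reads that fall on several of these genes were counted is not given in the sources used here, so the bulk value of 0 is given as listed. In INPUT the same 6 genes were at 0.147 to 9.21 CPM, against 129 to 2540 CPM for the other 6.

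Many members lay close to the start of an expressed gene. Whether 3 kb is the full width of a window or its reach on each side is not given in the sources used here, so the more distant of these starts may lie outside it. A start of another gene with bulk RNA of 1 CPM or more lay within 3 kb of the strongest start of 403 members (35.2%), against 21.6% of marked genes with bulk RNA and 1.24% of unmarked genes without. Within 1000 bp, inside the window on either reading, the shares were 27.1%, 18% and 0.468%, and within 500 bp 23%, 15.8% and 0.281%. The neighbour lay on the opposite strand and upstream, as at a divergent promoter, for 185 of the 403 (45.9%, median distance 214 bp), on the same strand for 142 (35.2%, 63 bp) and on the opposite strand downstream for 76 (18.9%, 388 bp).

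Examples of close starts were Gdf9, an oocyte growth factor with 64.9 CPM of mark, 192 bp from Uqcrq, and Vmn1r4, a vomeronasal receptor with 69.9 CPM, 83 bp from Nt5c3. Vmn1r4 was the sole member among 1503 chemoreceptor genes, of which 1499 were unmarked without bulk RNA. Epo, the hormone of red cell production, was chosen after its values were seen. It had 88.8 CPM of mark and no bulk count, and its strongest start lay 11 bp from a start of Gnb2. The 403 members with a neighbour had a median mark of 47.6 CPM, and the 743 without one 23.5 CPM. Median bulk RNA was 0.0644 CPM and 0.106 CPM in these sets.

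**Figure D2:**
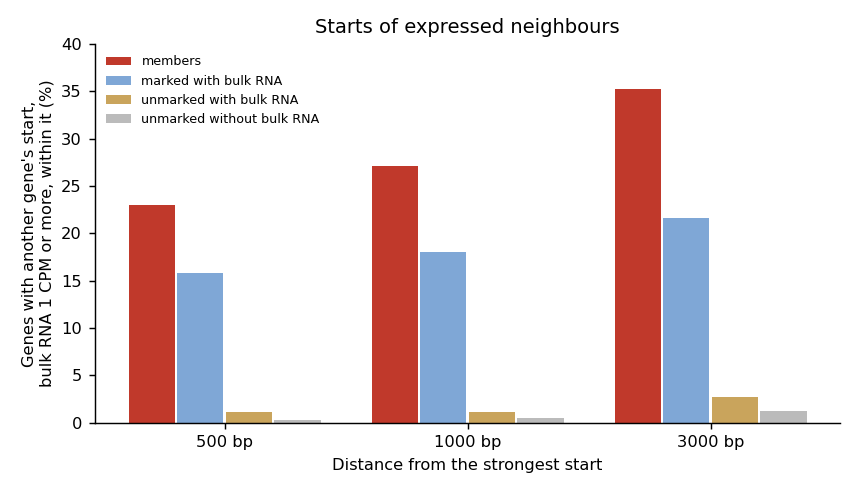
Share of genes (%) with another gene's start within 500, 1000 or 3000 bp of their strongest start, counting neighbours with bulk RNA of 1 CPM or more. Bars are the 4 classes of protein_coding genes. At 3000 bp the members reach 35.2%, above the 21.6% of marked genes with bulk RNA.

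Members also lay close to each other. Of the 1146, 116 (10.1%) lay within 3 kb of another member, so that the members stood at 1081 separate places. Hist1h2an and Hist1h2bp, for example, start 243 bp apart in opposite directions and had 56.8 and 54.8 CPM. Values of such pairs are not independent.

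By gene family, 481 members (42.0%) fell into at least 1 of 33 families defined by gene symbol. Developmental transcription factors of the Hox, other homeobox, Forkhead, Sox, T-box, GATA, basic helix-loop-helix (bHLH) and Zic or Gli families gave 58 members of 372 genes (15.6%). Secreted signalling ligands (Wnt, FGF, BMP and TGF-beta, Hedgehog and Notch ligands) gave 19 of 82 (23.2%), and ion channels and transmitter receptors 19 of 243 (7.82%). These shares stand beside the 5.23% of all protein_coding genes, as counts and without a test. There was no member among 111 keratins, 23 cadherins or 85 interferon-stimulated genes.

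Of the 58 developmental factors 54 (93.1%) had no expressed neighbour within 3 kb, as did 16 of the 19 ligands (84.2%) and 17 of the 19 channels and receptors (89.5%). Their marks were low, with medians of 24.1, 22.9 and 23.8 CPM. Forkhead factors gave 12 members of 44 genes (27.3%), bHLH factors 13 of 62 (21.0%), homeobox genes outside the Hox clusters 21 of 173 (12.1%) and T-box factors 4 of 17 (23.5%). Of 39 Hox genes 2 were members, among them Hoxb5 (16.4 CPM), 8 were marked with bulk RNA and 26 were unmarked without it. The T-box members were Tbx6, Eomes, Tbx2 and Tbx21, the last the T-bet factor of lymphocytes, at 36.3, 21.0, 20.7 and 19.2 CPM.

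Hes7, a bHLH oscillator of somite formation, held the highest mark of the developmental factors. It was at 155 and 138 CPM in KO and at 129 and 101 CPM in WT, with 0.370 CPM of bulk RNA. The KO libraries were both above the WT ones, but the log2 fold change of 0.34 ± 0.27 (SE) was within the spread (edgeR quasi-likelihood test, adjusted p = 0.35). Irx5, a homeobox factor, had 67.3 CPM and an expressed neighbour, Crnde, 1505 bp away. Foxa3, a liver factor, had 48.7 CPM, Hey1, a Notch target, 43.9 CPM, and Pitx3, a factor of dopamine neurons and lens, 39.2 CPM.

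Among the ligands, FGF genes gave 6 members of 22 (27.3%), led by Fgf9 at 52.4 CPM, and BMP, GDF and TGF-beta ligands 8 of 33 (24.2%). Dll4, a Notch ligand, had 56.5 CPM. The Wnt members were Wnt11, Wnt10b and Wnt2b, at 22.9, 18.4 and 16.2 CPM. Fgf18 had no bulk count in any library and 20.7 CPM of mark.

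Replication-dependent histones stood out by size of mark. These genes pack newly made DNA, are transcribed in S phase, and their mRNAs end in a stem-loop in place of a poly(A) tail. Of 67 such genes, 24 were members (35.8%), 41 were marked with bulk RNA and 2 were neither. The members' median mark was 80.4 CPM, close to the 78.3 CPM of the histones with bulk RNA. Of the 24, 17 lie on chromosome 13, 6 on chromosome 3 and 1 on chromosome 6, at 14 separate places. For 20 there was no neighbour with bulk RNA of 1 CPM or more within 3 kb. Histone neighbours below that limit were not counted, and 17 of the 24 lay within 3 kb of another member. Bulk RNA was low in all 67: the median of the 41 was 1.34 CPM and their highest 16.8 CPM. Whether the bulk libraries were selected for poly(A) was not given in the sources used here. Copies of a histone gene are near identical, so reads may have been split among them or dropped, and the value of any 1 copy is uncertain.

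Predicted genes, with symbols beginning in Gm, gave 178 members of 1493 (11.9%), of which 88 had no bulk count and 64 had no expressed neighbour. RIKEN clone genes gave 69 of 646 (10.7%), TMEM genes 23 of 240 (9.58%) and coiled-coil domain genes 15 of 138 (10.9%). Solute carriers gave 19 of 385 (4.94%) and numbered zinc fingers 13 of 424 (3.07%). The strongest start belonged to a transcript annotated as protein_coding in 920 members (80.3%).

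The design asks whether the mark at these starts differed between KO and WT. Most members read higher in KO, but so did marked genes in general, and by the same amount. The median log2 fold change was 0.31 over the members and 0.31 over marked genes with bulk RNA, against -0.15 over all 51038 windows tested. By edgeR (quasi-likelihood fit, p adjusted after Benjamini and Hochberg, limit 0.05) 125 members were higher in KO and 7 lower, 11.5% of 1146, where 7.88% of all windows were called (3.23% higher, 4.66% lower). Of marked genes with bulk RNA, 496 were higher and 17 lower (4.63% of 11084). Both KO libraries were above both WT libraries at 841 members (73.4%) and below at 45, beside 7914 (71.4%) and 102 of the marked genes with bulk RNA and 28% and 37.3% of all windows tested.

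The split between higher and lower depended on the scaling. It was 125 to 7 with TMM and 129 to 3 with RLE size factors, but 92 to 40 with library size alone and 78 to 48 with loess offsets. With TMM among the 15919 windows of 16 CPM or more alone, 9 members were higher and 22 lower, the members' median was 0.00, and 335 and 323 of all those windows were called higher and lower. The members' median was 0.43 with RLE, 0.07 with library size and 0.04 with loess. The size of the members' shift and the split of calls thus depended on the scaling and on the windows fitted, and single members are also given relative to other marked starts.

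Calls were concentrated at low marks in both classes. Between 16 and 24 CPM 17.2% of the members and 16.5% of the marked genes with bulk RNA were called, between 24 and 32 CPM 14.4% and 12.1%, and between 32 and 64 CPM 7.98% and 4.33%. Of the 424 members of 16 to 24 CPM, 66 were higher and 7 lower, and of the 144 members of 64 CPM or more none was called with TMM over all windows. In the latter 15 had an unadjusted p under 0.05, all higher in KO, DESeq2 called none, and the standard errors were larger (median 0.24 against 0.16 on the log2 scale). The fit of marked windows alone did call members of 64 CPM or more, among them Hist1h4m, Hist1h2bq, Hist1h2ao and Gm10642, lower in KO. Members without an expressed neighbour gave 101 higher and 7 lower of 743, and those with one 24 higher and 0 lower of 403. Without WT replicate 2 the calls fell to 50, without KO replicate 1 to 64, and without WT replicate 1 they rose to 242. DESeq2 called 51, all higher and all among the edgeR calls.

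**Figure D3:**
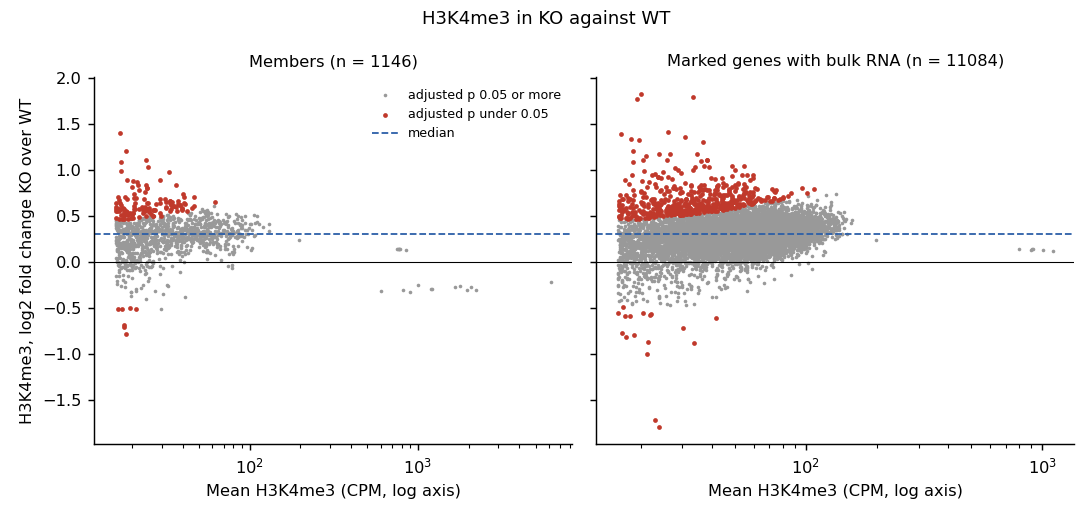
Log2 fold change of H3K4me3, KO over WT, against mean H3K4me3 (CPM, log axis) for the 1146 members and the 11084 marked genes with bulk RNA. Red points have an adjusted p under 0.05 in edgeR with TMM scaling, and the dashed line is the median, 0.31 in both panels. The 18 members above 200 CPM, on the right, lie within 0.32 of 0.

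Of the 132 calls, 9 held in the same direction under TMM, RLE, library size, loess and the fit of marked windows alone, 6 higher and 3 lower. Fignl2, a fidgetin-like ATPase, had 26.4 and 25.3 CPM of mark in KO and 12.9 and 9.22 CPM in WT. Its log2 fold change was 1.21 ± 0.17 (SE, edgeR adjusted p = 5.8e-10), and 0.92 ± 0.15 relative to marked windows (adjusted p = 0.012). Wfdc21, a WAP domain protein, had 29.4 and 37.0 CPM in KO and 14.4 and 16.1 CPM in WT, a change of 1.11 ± 0.17 (edgeR adjusted p = 8.5e-08). The groups did not overlap for either gene.

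Pilrb2, an activating receptor of myeloid cells, had 30.9 and 36.1 CPM in KO against 15.6 and 16.7 CPM in WT (log2 fold change 1.04 ± 0.17, edgeR adjusted p = 1e-06). Gm6970, a predicted gene with no bulk count, had 22.6 and 23.4 CPM against 12.1 and 10.8 CPM (1.00 ± 0.17, edgeR adjusted p = 1.1e-06). Tctex1d4, of the dynein light chain family, had 44.5 and 44.4 CPM against 23.8 and 20.6 CPM (0.99 ± 0.18, edgeR adjusted p = 1.8e-05), and an expressed neighbour, Btbd19, 1088 bp away. These 5 genes were called in each of the 11 alternative fits. Pde2a, a phosphodiesterase, was the other rise to hold under the scalings, at 55.0 and 61.3 CPM against 38.8 and 31.8 CPM (0.71 ± 0.20, edgeR adjusted p = 0.014).

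The largest rises with TMM were at Zfp750 (1.41 ± 0.17), an epidermal transcription factor, Fignl2, Wfdc21 and S100a3 (1.09 ± 0.17), a calcium-binding protein. Zfp750 had 20.4 and 29.2 CPM in KO against 7.74 and 10.8 CPM in WT (edgeR adjusted p = 3.1e-13), and S100a3 20.4 and 26.4 CPM against 9.81 and 12 CPM (edgeR adjusted p = 5e-08). Relative to marked windows their edgeR adjusted p-values were 0.051 and 0.085. Tal2, a bHLH factor related to the blood regulator Tal1, had 41.0 and 35.8 CPM against 19 and 21.8 CPM (0.90 ± 0.18, edgeR adjusted p = 8.4e-05, and 0.054 relative to marked windows).

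The 3 falls that held under every scaling were at Slc6a3, Msh4 and Paqr6. Slc6a3, the dopamine transporter, had 13.5 and 13.7 CPM in KO against 24 and 22.2 CPM in WT. Its log2 fold change was -0.77 ± 0.17 (edgeR adjusted p = 0.00035), and -1.08 ± 0.16 relative to marked windows (adjusted p = 0.0067). Msh4, a meiotic recombination protein, had 13.6 and 13.9 CPM against 20.6 and 23.9 CPM (-0.70 ± 0.17, edgeR adjusted p = 0.0016). Paqr6, a membrane progestin receptor, had 13.9 and 13.6 CPM against 20.9 and 22.8 CPM (-0.68 ± 0.17, edgeR adjusted p = 0.0026). DESeq2 called none of the 3 (adjusted p = 0.10, 0.13 and 0.14).

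Falls at other members included developmental genes. Bmp4, a ligand, had 14.3 and 13.1 CPM in KO against 19.5 and 19 CPM in WT and Pax6, a homeobox factor of eye and brain, 14.8 and 17.8 CPM against 23.1 and 22.6 CPM. With Cd248, a stromal membrane protein, their log2 fold changes were -0.50, -0.50 and -0.51 (edgeR adjusted p = 0.037, 0.039 and 0.037 for Bmp4, Pax6 and Cd248). All 3 were lost with RLE size factors, with DESeq2 and without a filter, Pax6 and Cd248 also without any 1 replicate and Bmp4 without each replicate but KO 1. Bmp4 was called in 5 of the 11 alternatives and Pax6 and Cd248 in 4, the fit of marked windows among them. That fit also called the homeobox genes Nkx1-2 (-0.81 ± 0.11, edgeR adjusted p = 0.005) and Otx1 (-0.70 ± 0.16, edgeR adjusted p = 0.034) lower, and Fgf2 (-0.67 ± 0.16, edgeR adjusted p = 0.045).

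Over families, 5 of the 58 developmental factors were higher and 1 lower (10.3%), with a median of 0.21, and 1 of the 19 ligands was higher and 1 lower (10.5%), with a median of 0.21. These shares lie near the 11.5% of all members. Lhx1 (0.57 ± 0.17, edgeR adjusted p = 0.022), Gli1 (0.64 ± 0.19, adjusted p = 0.018), Foxd4 and Tal2 were among the factors that rose, Pax6 the one that fell, and Gdf15 (0.58 ± 0.19, adjusted p = 0.038) the ligand that rose. Relative to marked windows Lhx1, Gli1, Foxd4 and Gdf15 were at 0.27, 0.33, 0.25 and 0.27. None of them was called there (edgeR adjusted p = 0.36, 0.09, 0.48 and 0.2), nor was Tal2, while Pax6 was. None of the 24 histone members was called by DESeq2 or by edgeR with TMM over all windows. None had an unadjusted p under 0.05 in that edgeR fit, and their median was 0.27. The fit of marked windows alone called Hist1h4m, Hist1h2bq and Hist1h2ao lower in KO (-0.36, -0.35 and -0.33, edgeR adjusted p = 0.015, 0.016 and 0.017). The loess fit called the same genes lower.

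Single members could also be set beside their bulk RNA by genotype. Only 183 members passed the filter on low counts there, and the rule had capped their mean, so neither a count nor a test over them is read and the values below are a description. Pdgfra, a receptor of mesenchymal growth factors, had bulk RNA of 0.280, 0.262 and 0.156 CPM in KO and 0.502, 1.10 and 0.682 CPM in WT. Its mark was higher in KO, at 39.4 and 38.3 CPM against 26.7 and 22.3 CPM (0.65 ± 0.18, edgeR adjusted p = 0.010). Relative to marked windows the change was 0.35 ± 0.10 and was not called (edgeR adjusted p = 0.077). Hes7 had bulk RNA of 0.433, 0.712 and 0.591 CPM in KO and 0.0627, 0.323 and 0.0974 CPM in WT.

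In INPUT, the RNA of whole fetal liver, 306 members (26.7%) had a mean of 1 CPM or more. That share was 24.6% in WT and 24.8% in KO. It was 95.2% for marked genes with bulk RNA and 11.2% for unmarked genes without. No INPUT count was seen for 575 members (50.2%), and 74 (6.46%) reached 10 CPM. Members without an expressed neighbour had RNA in INPUT more often by count, 233 of 743 (31.4%), than those with one, 73 of 403 (18.1%). INPUT and bulk differ in cells and in preparation, which cannot be told apart here.

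**Figure D4:**
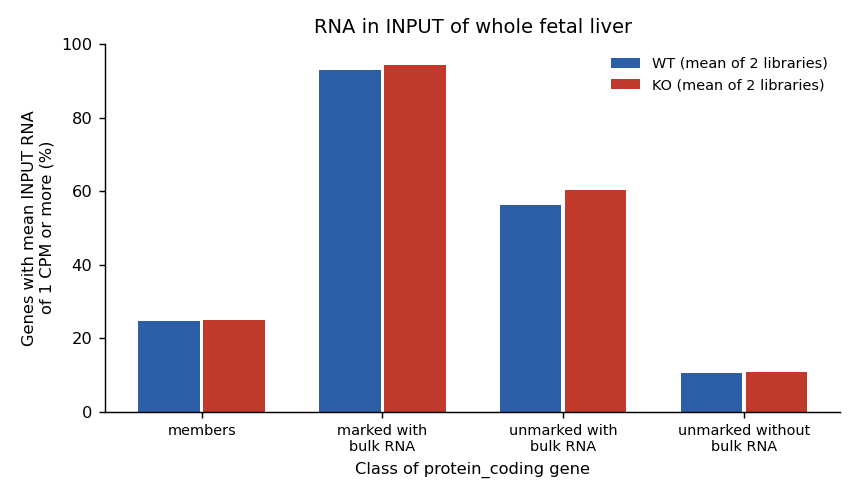
Share of genes (%) with mean INPUT RNA of 1 CPM or more, in WT and KO (mean of 2 libraries each), by class of protein_coding gene. The members stand at 24.6% and 24.8%, between the marked genes with bulk RNA and the unmarked genes without.

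The members of highest INPUT CPM, which is not corrected for gene length, were histone genes and liver genes. Vtn, which encodes the plasma protein vitronectin, had 274 and 267 CPM in KO and 138 and 176 CPM in WT, with 0.479 CPM in bulk. Apoh, a plasma apolipoprotein, had 115 and 111 CPM against 58.5 and 104 CPM. The KO libraries were above the WT ones for both, but neither passed the test (log2 fold change 0.80 and 0.50, edgeR adjusted p = 0.17 and 0.52). Other non-histone members of this group were Gm867 and Fn3k, which encodes fructosamine-3-kinase, at means of 49.6 and 47.8 CPM. Foxa3 had 23.2, 20.5, 24.1 and 25.2 CPM over KO 1, KO 2, WT 1 and WT 2, and Kitl, the ligand of Kit made by niche cells, had 13.9, 36.9, 61.1 and 42.7 CPM.

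By family, 22 of the 24 histone members, 15 of the 58 developmental factors, 8 of the 19 ligands and 3 of the 19 channels and receptors had 1 CPM or more in INPUT. Of the 178 predicted genes 12 did. Among the factors were Foxa3, Foxa1 (12.5 CPM) and Sox5 (13.9 CPM), and among the ligands Tgfb2 (14.4 CPM) and Bmp2 (7.95 CPM).

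Between KO and WT none of the 257 members tested in INPUT was called by edgeR (1.18% of all 14657 genes were, 0.614% higher and 0.566% lower), with a smallest adjusted p of 0.0977. At an unadjusted p under 0.05, 20 were higher and 23 lower. DESeq2 called 7: Hist1h2ai, Hist1h2an, Hist4h4, Apold1, Gli1 and Gm10642 lower and Etnk2 higher. Both KO libraries were above both WT libraries for 48 of these members (18.7%) and below for 44 (17.1%), near the 21.5% and 18.8% of all genes tested.

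The histone members leaned lower in KO. Their summed INPUT RNA was 870 and 884 CPM in the KO livers and 1390 and 1930 CPM in the WT livers. Of the 22 with RNA, 14 had both KO libraries below both WT libraries (63.6%) and 2 had both above (9.09%), beside 18.8% and 21.5% of all genes tested in INPUT. Of the 21 tested 17 had a log2 fold change below 0, with a median of -0.91 beside 0.02 over all genes tested, and 8 had an unadjusted p under 0.05. None was called by edgeR, and DESeq2 called 3. Hist1h2an had 165 and 151 CPM in KO and 272 and 316 CPM in WT (-0.87, edgeR adjusted p = 0.0977). Hist1h2ai had 141 and 119 CPM against 249 and 376 CPM (-1.24, edgeR adjusted p = 0.105), and Hist4h4 63.3 and 85.6 CPM against 140 and 167 CPM (-1.02, edgeR adjusted p = 0.105). The groups did not overlap for these 3. Copies of a histone gene may share reads, so values of copies, such as Hist1h2an and Hist1h2ai, are not to be taken as separate measurements.

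**Figure D5:**
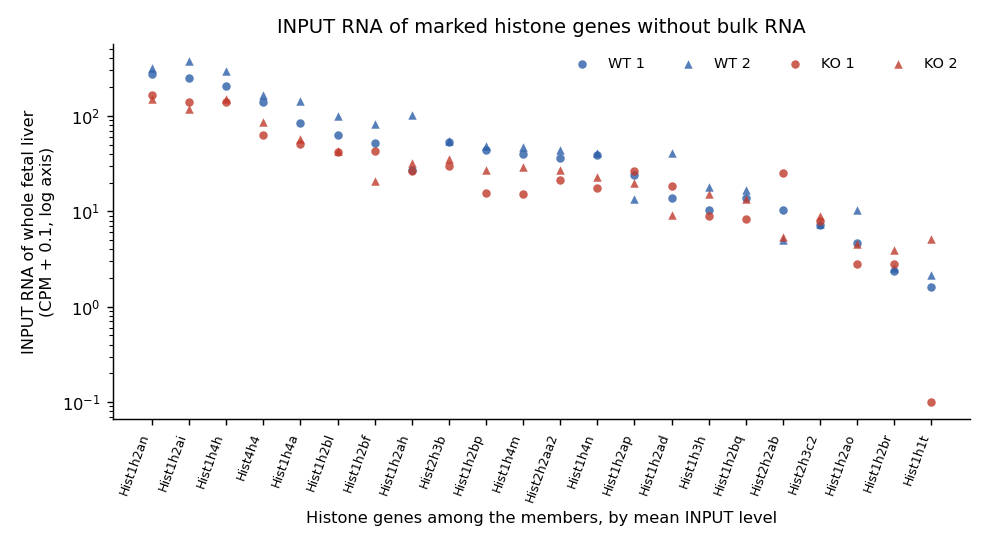
INPUT RNA (CPM + 0.1, log axis) of the 22 histone members with a mean of 1 CPM or more, in each of 2 KO and 2 WT whole fetal livers. In 14 of the 22 both KO points lie below both WT points. The point of Hist1h1t at 0.1 is a count of 0.

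Some lists of cell type markers differed between the KO and WT livers as well. All 8 hepatocyte markers were higher in both KO libraries than in both WT libraries, with sums of 19200 and 19900 CPM against 9690 and 13300 CPM, and 3 were called. Of the 7 erythroid markers 4 were lower in both KO libraries and 1 higher, with 2 called lower, and their sums overlapped (16100 and 13600 CPM in KO, 13200 and 16000 CPM in WT). Sums of the 5 neutrophil markers were 315 and 334 CPM in KO and 101 and 170 CPM in WT, with 3 higher in both KO libraries and 0 called. Sums that did not overlap were also those of the 5 macrophage markers (123 and 130 CPM against 57.7 and 54.9 CPM), the 4 megakaryocyte markers (364 and 374 CPM against 212 and 216 CPM) and the 6 LSK markers (111 and 113 CPM against 75.4 and 71.6 CPM), with none of these 3 lists holding a called gene. Higher in both KO libraries were 2 of the macrophage, 2 of the megakaryocyte and 3 of the LSK markers. In both KO libraries 1 LSK marker was lower, and 1 macrophage marker had no INPUT count. Sums of the stromal, endothelial, lymphoid and neuronal markers overlapped, with no gene called. Sums of the 4 mast cell markers went the other way, at 0.244 and 0.293 CPM in KO and 0.754 and 2.03 CPM in WT. These sums lie near 0, and 2 of the 4 markers had no INPUT count. The part of cell makeup in the histone and plasma protein values was not tested.

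J2 pulls down RNA with double-stranded stretches, and its level was set against INPUT within each genotype. In WT 10 of the 257 members tested were higher in J2 and 24 lower, 13.2% in all. Of all genes 13.2% were higher and 10.7% lower in WT (23.9% called). In KO 14 members were higher and 31 lower, 17.5% in all. Of all genes 15.3% were higher and 15.1% lower in KO (30.4% called). Without KO replicate 1 or 2 the KO calls fell to 19 and 17. The 2 contrasts did not differ at any member or any of the 14657 genes in the test of their difference with edgeR, where 8 members were higher and 11 lower at an unadjusted p under 0.05. These contrasts share their INPUT libraries with the one above.

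Histones made up 14 of the 24 members lower in J2 in WT and 18 of the 31 in KO. Of the 21 tested, 14 were lower in WT and 18 in KO and none higher, with median log2 fold changes of -2.69 and -3.12. Over all genes tested the medians were 0.10 and 0.04, and 10.7% were lower in WT and 15.1% in KO. Hist1h2an had 40.6 and 58.2 CPM in WT J2 against 272 and 316 CPM in INPUT (-2.60 ± 0.25, edgeR adjusted p = 3.4e-05). Vtn had 18.6 and 15.5 CPM in WT J2 against 138 and 176 CPM (-3.22 ± 0.31, edgeR adjusted p = 3.4e-05). Ttc36, a tetratricopeptide protein, was at 0.673 and 1.25 CPM against 7.92 and 25.2 CPM (-4.09 ± 0.81, edgeR adjusted p = 0.0037).

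Members higher in J2 in both genotypes included Npr3, Rbms3, Kitl, Samd5 and Mcc. Samd5 (WT log2 fold change 3.09) lost its call in WT without WT replicate 1 (edgeR adjusted p = 0.0881). Npr3, the clearance receptor of natriuretic peptides, had 71.6 and 58.2 CPM in WT J2 against 9.81 and 5.70 CPM in INPUT (3.03 ± 0.41, edgeR adjusted p = 0.0003). Rbms3, an RNA-binding protein, had 132 and 57.2 CPM against 18.1 and 10.6 CPM (2.68 ± 0.43, edgeR adjusted p = 0.001). Kitl had 208 and 142 CPM against 61.1 and 42.7 CPM in WT (1.72 ± 0.39, edgeR adjusted p = 0.0079) and 236 and 260 CPM against 13.9 and 36.9 CPM in KO (3.21 ± 0.41, edgeR adjusted p = 0.00016). J2 and INPUT did not overlap for these 3 in WT, nor for Kitl in KO.

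Single-cell RNA of LSK cells gave another readout of the same sort. No doublets were called or removed here, the counts were summed over all cells, and RNA free in the droplets was not estimated. Of the 1146 members, 113 (9.86%) were listed in its table, against 95.1% of marked genes with bulk RNA and 2.41% of unmarked genes without, and 15 members reached 5 CPM in the summed counts. In each library a listed member had counts in 0 cells or in 10 or more. A value of 0, or a member not listed, may thus still have RNA in a few cells. The 4 libraries held 2734 to 4930 cells and 7269250 to 11652463 counts, and each shared 3 to 6 cell barcodes with the others. Scamp4, a secretory carrier membrane protein, was highest, at 30.5 and 32.5 CPM in KO and 30.1 and 30.5 CPM in WT, beside 0.114 CPM in bulk. Gm10800, the member of highest mark, had 54.6 and 14.2 CPM in KO and 8.12 and 12.3 CPM in WT. Hist1h2an had 26.4 and 21.9 CPM in KO and 35.2 and 20.1 CPM in WT, Hist1h2ai 8.95 and 14.1 CPM against 23.2 and 14.9 CPM, and Fdx1l, a ferredoxin, 9.36 and 19.4 CPM against 12.1 and 9.25 CPM. The groups overlapped for Scamp4, Hist1h2an and Fdx1l, and not for Hist1h2ai and Gm10800. With counts summed over cells no test was run. Rpl24, which encodes a ribosomal protein, had 7.73 CPM over the 4 libraries and 0.429 CPM in bulk.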

How the data were processed

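Raw counts of aligned reads per gene or start window, as the authors deposited them, were used for bulk RNA-seq (6 libraries), H3K4me3 CUT&RUN (4), INPUT and J2 RNA (4 each) and single cells (4). The submitters' processing notes name the build GRCm38.p5 and, with no role given, Seurat 3.0, edgeR, bedtools, the aligners Bowtie2 2.2.9 and STAR 2.5.3a, and Picard 2.9.0. Strand use, poly(A) selection and treatment of shared reads are not given in the sources used here. Samples were grouped by the labels' genotype and method.

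CPM were scaled by TMM over all genes or windows. Tests were edgeR 4.0.16 quasi-likelihood fits (R 4.3.3) on all features passing filterByExpr, with Benjamini-Hochberg adjustment and a limit of 0.05: H3K4me3 alone, bulk alone, and INPUT with J2 as 4 groups. Alternatives were RLE, library size and loess (limma 3.58.1) scaling, marked windows alone, no filter, a replicate block, DESeq2 1.42.0, each replicate left out, and other limits. The fits were tried on simulated data with the same fixed spread for all features. Changes of 1 on the log2 scale were recovered for 37 of 100 windows in H3K4me3 and 51 of 100 genes in INPUT. For changes of 2 these were 87 and 90. INPUT and J2 come from parts of the same liver per the labels' protocols, and the deviations of same-numbered INPUT and J2 samples from their group means correlated at 0.051 (KO) and 0.129 (WT).

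The members, gene families and lists were chosen with earlier results of these data known. Genes were named by rule: the highest marks, rises, falls and INPUT levels, the top 3 per family, those nearest the limits, and those called in INPUT or J2. Epo, Nkx1-2, Otx1, Fgf2, Fgf18, Tgfb2, Bmp2, Foxa1, Tbx21, Hist1h1t, Gm10642, Etnk2, the further mitochondrial members and the single-cell examples were named after their values were seen. Replicates may differ technically as well as biologically, so p-values measure the spread between these samples. Some items are not reported here.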

Additional observations from a re-analysis of the deposited data

How the results depend on the processing

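The 1146 members became 2208 with a mark limit of 8 CPM, 520 with 32 CPM and 743 without those near an expressed start, and 1132 of them were kept with library size scaling. Calls in the mark, 132, became 31 among windows of 16 CPM or more (14 of them shared), 51 with DESeq2, 280 and 30 with mark limits of 8 and 32 CPM, and 50 to 242 with 1 replicate left out. Same-numbered KO and WT samples share only a number. A replicate block gave 725 calls in H3K4me3, and KO 1 and WT 1 deviated together with a correlation of 0.364 over 2 pairs. The members' median log2 fold change of 0.309 was 0.426 with RLE size factors, 0.065 with library size, 0.042 with loess, 0.004 among windows of 16 CPM or more, 0.225 with a mark limit of 8 CPM and 0.206 to 0.439 with 1 replicate left out. INPUT gave no call, but 10 without a filter, 7 with DESeq2, 1 with the replicate block and 0 to 4 with 1 replicate left out. J2 over INPUT in KO gave 17 to 59 calls with 1 replicate left out, and in WT 25 to 27. The cause of these shifts was not tested. The split of calls in the mark turned among windows of 16 CPM or more, from 125 higher and 7 lower to 9 and 22. The number of members with RNA in INPUT, 306, ranged from 228 to 387. With the replicate block, Gli1, Ushbp1, Gm20696, Rnf152 and Gm10778 lost their call in J2 over INPUT in WT, Gm10800 lost it in KO, and no other gene named for a J2 call lost it to the block.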
